A study of Mus musculus with 8 samples.

Results

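The genes described here encode proteins that bind precursor messenger RNA and take part in its splicing. They were taken from the deposited expression table by name: genes of the Srsf series (SR proteins), of the Snrp series (proteins of the small nuclear ribonucleoproteins, snRNPs), of the Sf3a and Sf3b series (subunits of splicing factor 3) and of the Hnrnp series (heterogeneous nuclear ribonucleoproteins). Of 11783 genes listed, 52 were members: 11 SR protein genes, 12 snRNP protein genes, 9 SF3 genes and 20 hnRNP genes. The processed pseudogene Hnrnpa1l2-ps2 matches the Hnrnp name and was left out, at 7.89 ± 1.59 FPKM at PND4 and 6.55 ± 1.16 FPKM at PND1 (SD, n = 4 each).

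RNA-seq was run on granulosa cells, the somatic cells that surround the oocyte, dissociated from ovaries of C57BL/6 mice. There were 4 libraries of mice at postnatal day 4 (PND4) and 4 of mice at postnatal day 1 (PND1). No allele or agent is given for either age, and nothing in the labels ties a library to its own animal, litter or pool. The p-values below therefore set differences between ages against the scatter of these libraries, which may be technical, and may not extend to other mice. The study is framed around the activation of primordial follicles, which form and begin to grow in the mouse ovary around these ages.

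Values are FPKM, fragment counts divided by transcript length and by the size of the library, so levels of different genes can be set side by side per length. FPKM over all listed genes totalled 443333 to 496462 in the PND4 libraries and 454572 to 505035 in the PND1 libraries, and read depth is unknown. Mitochondrially encoded genes took 22.4% to 29.4% of this total at PND4 and 26.6% to 30.6% at PND1. All 9 granulosa markers were listed, with summed levels of 816 to 1077 FPKM at PND4 and 828 to 1161 FPKM at PND1. Most of each sum came from 2 keratin genes. Krt18 stood at 379 to 531 FPKM at PND4 and 378 to 552 FPKM at PND1, and Krt8 at 290 to 406 and 272 to 455 FPKM. Foxl2 stood at 13.3 to 26.2 FPKM at PND4 and 10.5 to 19.3 FPKM at PND1. Krt18, Krt8 and the summed surface epithelium markers were lowest at their age in PND4 replicate 1 and PND1 replicate 2. Foxl2 was highest there, so the granulosa sum does not track it. Means of Foxl2 and Nr5a1 were higher at PND4, and those of Krt18, Krt8, Kitl, Amhr2, Fst, Irx3 and Wnt4 lower. Wnt4 was lower without overlap, like 1.08% of all genes tested below, at 12.1 to 17.94 FPKM at PND4 and 17.96 to 23.7 FPKM at PND1. Summed stroma markers (7 of 7 listed) were 122 to 157 FPKM at PND4 and 94.0 to 108 FPKM at PND1. Summed oocyte markers (9 of 10 listed, Bmp15 not among them) were 15.98 to 187 FPKM at PND4 and 11.7 to 53.8 FPKM at PND1, with the 187 in PND4 replicate 3. This sum mixes directions: means of Zp1, Zp2, Zp3, Gdf9 and Ddx4 were higher at PND4, and those of Figla, Dazl, Kit and Nobox lower. Zp3 averaged 24.6 FPKM at PND4 and 4.88 FPKM at PND1, and Figla 0.377 and 3.96 FPKM. Erythroid markers (3 of 5 listed) summed to 0.268 to 11.4 FPKM at PND4 and 17.1 to 48.9 FPKM at PND1, and surface epithelium markers (5 of 5 listed) to 153 to 352 FPKM and 84.9 to 288 FPKM. Of immune markers 2 of 5 were listed (1.25 to 11.2 FPKM at PND4, 4.04 to 8.38 FPKM at PND1), of neural markers 1 of 4 (0.624 to 4.02 FPKM and 2.02 to 6.36 FPKM), and none of the 4 endothelial markers. The part of these cell types in the results below was not tested.

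Splicing removes introns from precursor messenger RNA. The U1 snRNP recognises the start of an intron and the U2 snRNP, with its SF3A and SF3B complexes, the branch site near its end. Each of these snRNPs carries a ring of Sm proteins on its RNA. SR proteins, named for stretches rich in arginine and serine, mostly favour the use of exons they bind, whereas hnRNPs often oppose it and also act in the stability, export and translation of RNA. Genes for these proteins are active in nearly all cells, and many of them limit their own output through alternative splicing. Some do so by including an exon with a premature stop codon, sometimes called a poison exon, and the resulting RNA is degraded by nonsense-mediated decay.

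Such exons matter here because the deposited table has 1 value per gene and does not separate coding from decay-prone transcripts. In GENCODE M21 on GRCm38, the 52 genes had 375 annotated transcripts, of which 175 were protein-coding, 40 were of the nonsense-mediated decay class and 110 retained an intron. The decay class made up 17.2% of the transcripts of SR genes, 10.3% of those of hnRNP genes, 7.55% of those of snRNP genes and 2.50% of those of SF3 genes, and 9 of 11 SR genes had at least 1. In 7 genes a decay-class transcript had an internal exon that holds its stop codon and overlaps no exon of a protein-coding transcript of that gene. These were Srsf3, Srsf7, Srsf11, Snrpb, Snrpa, Sf3b1 and Hnrnpll. Exon 4 of the Srsf3 transcript is 456 bases long (chr17:29039454-29039909, plus strand) and exon 4 of the Srsf7 transcript 460 bases (chr17:80204622-80205081, minus strand). Exon 4 of the Srsf11 transcript is 109 bases long (chr3:158024123-158024231, minus strand) and exon 3 of the Snrpb transcript 124 bases (chr2:130176629-130176752, minus strand). The stretch of each from its first base to its stop codon is shown, 5′ to 3′ on the gene's strand from GENCODE M21 transcripts, with the stop codon in capitals, because it is the part that ends translation early.
Srsf3: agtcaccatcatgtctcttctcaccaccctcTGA
Srsf7: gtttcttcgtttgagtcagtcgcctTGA
Srsf11: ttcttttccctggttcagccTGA
Snrpb: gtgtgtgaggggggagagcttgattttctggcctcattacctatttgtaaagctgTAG
The printed stretches are 34, 28, 23 and 58 bases long, in that order. How much RNA includes these exons at either age was not analysed here.

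The comparison asks which of these genes differed between PND4 and PND1. None of the 52 passed the test over all genes (limma on log2(FPKM + 1), 10756 genes tested, adjusted p under 0.05), and the smallest adjusted p among them was 0.740. The share of all tested genes called was 0.00930%, which is 1 gene. At an unadjusted p under 0.05, 9 members were higher and 0 lower at PND4, which is 17.3% of the members, against 4.06% of all tested genes higher and 1.84% lower, or 5.90% in either direction. Most differences pointed the same way: 45 of 52 members had a log2 difference above 0, or 86.5%, against 60.3% of all tested genes. In the authors' deposited table, 0 of 11783 genes had a q under 0.05, members included, and the smallest q was 0.107. A p under 0.05 was given in the authors' deposited table to 4 of 52 members, or 7.69%, and to 6.55% of all genes. A PND1 over PND4 fold below 1, that is, higher values at PND4, stood in the authors' deposited table for 43 of 52 members and 53.6% of all genes.

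The excess of small p-values depended on how the libraries were scaled. With median-of-ratios factors, 2 members had an unadjusted p under 0.05 and higher PND4 values, or 3.85% of the members against 2.24% of all tested genes, and 38 of 52 members (73.1%) had a difference above 0 against 51.2% of all genes. With upper-quartile factors the same counts were 2 and 38, against 2.13% and 50.1% of all genes. Snrpb2 was among the 2 in both cases. The count of 9 was also 3 without PND4 replicate 2 or PND1 replicate 1, and 4 without PND4 replicate 3, PND4 replicate 4 or PND1 replicate 2. All 52 members passed the filter on low values, and 39 of them lay above the upper quartile of mean FPKM over all listed genes. Among the 2946 tested genes above it, 66.0% had a difference above 0 and 7.60% had an unadjusted p under 0.05 with higher PND4 values, in the FPKM as deposited.

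The median log2 difference over the 52 members was 0.16, and that of all tested genes 0.078. Without PND4 replicate 1 the members' median was 0.15 and that of all genes 0.13, with 68.0% of all genes above 0. Without PND1 replicate 1 these medians were 0.13 and 0.028. With all 8 libraries, 60.3% of all tested genes were above 0. By family the median was then 0.23 for snRNP proteins (11 of 12 above 0), 0.19 for SR proteins (11 of 11), 0.19 for SF3 subunits (9 of 9) and 0.10 for hnRNPs (14 of 20). With median-of-ratios factors these medians were 0.16, 0.12, 0.11 and 0.026, beside 0.0086 for all genes. The 95% interval of a member's difference reached a median of 0.38 to either side, so most changes below about that size could not be told from 0 at this replication. These intervals are not adjusted for the number of genes tested, and members with larger differences did not pass adjustment either.

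**Figure D1:**
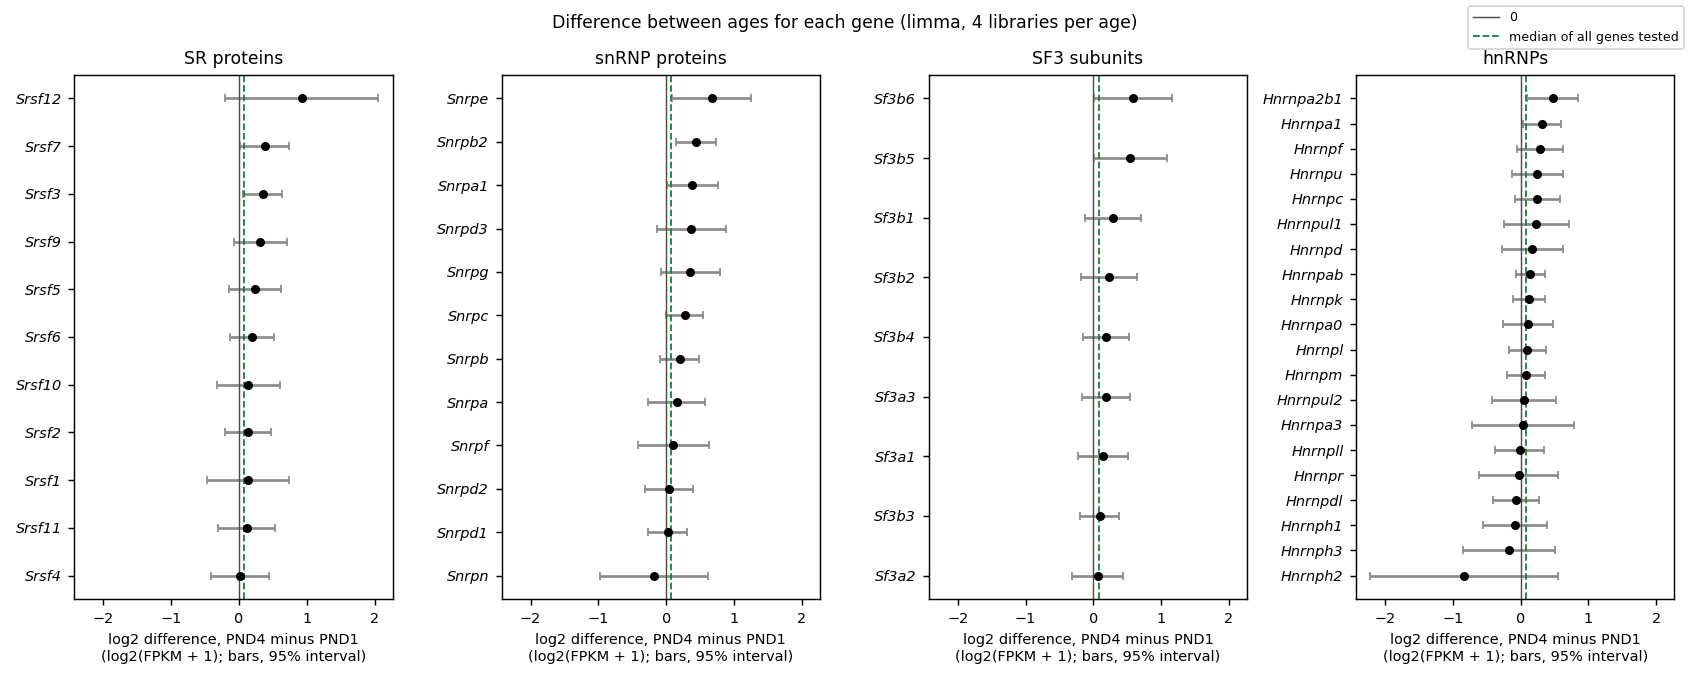
The log2 difference, PND4 minus PND1, on the log2(FPKM + 1) scale of each of the 52 genes by family, with its 95% interval from limma over 4 libraries per age. Points lie right of 0 for 45 genes, and the dashed line marks the median of all tested genes, 0.078.

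Summed over the 52 genes, levels were 2765, 2690, 2540 and 2556 FPKM in PND4 replicates 1 to 4 and 2241, 2130, 2391 and 2436 FPKM in PND1 replicates 1 to 4. Every PND4 sum lay above every PND1 sum. The members took 0.573% ± 0.0243 of all listed FPKM at PND4 and 0.476% ± 0.0450 at PND1 (SD, n = 4 each), and of the total without mitochondrially encoded genes 0.759% ± 0.0372 and 0.669% ± 0.0530. With median-of-ratios factors the sums overlapped, at 2372 to 3013 FPKM at PND4 and 2236 to 2519 FPKM at PND1, and they overlapped with upper-quartile factors too. Scaled to the total without mitochondrially encoded genes, they barely missed overlap, at 2481 to 2738 FPKM at PND4 and 2155 to 2477 FPKM at PND1. In bulk libraries, a larger share of cells with high levels and more RNA of these genes per cell cannot be told apart.

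**Figure D2:**
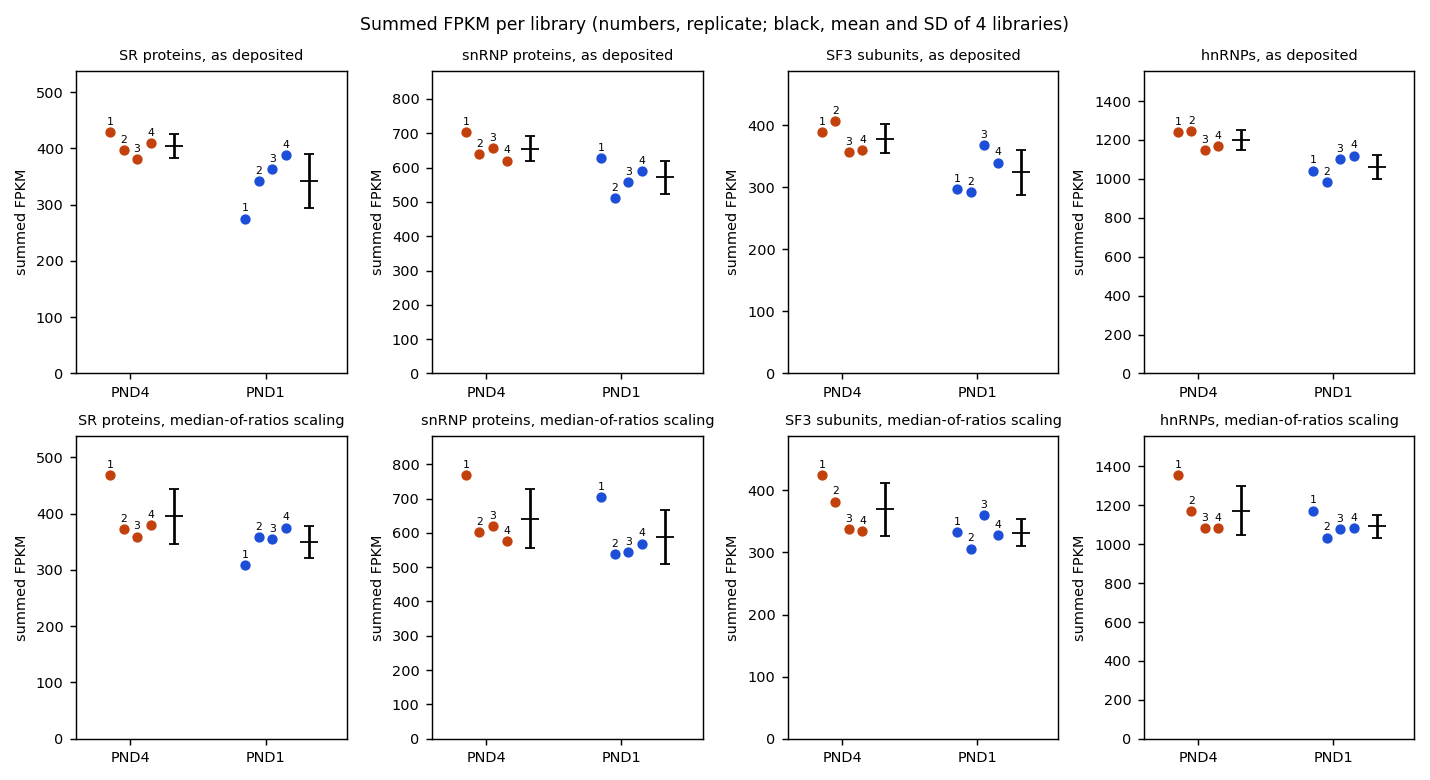
Summed FPKM of each family per library, with the FPKM as deposited (upper row) and after median-of-ratios scaling (lower row). Numbers give the replicate and black bars the mean and SD of 4 libraries. As deposited, the snRNP sums were 620 to 704 FPKM at PND4 and 512 to 627 FPKM at PND1, and the hnRNP sums 1147 to 1247 FPKM and 985 to 1120 FPKM.

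Of the SR protein genes, Srsf3 and Srsf7 had the smallest p-values, both with higher PND4 values that did not pass adjustment. They encode closely related SR proteins that also serve as adaptors for the export of messenger RNA. Srsf3 stood at 53.2, 61.6, 47.9 and 61.7 FPKM in PND4 libraries and at 41.1, 41.4, 43.6 and 48.2 FPKM in PND1 libraries. The lowest PND4 library lay just under the highest PND1 library, so the ages overlapped by that pair alone. The log2 difference was 0.35 (SE 0.13, limma unadjusted p = 0.0209, adjusted p = 0.800). Srsf7 stood at 56.4, 61.6, 59.7 and 76.8 FPKM in PND4 libraries and at 35.9, 48.6, 56.9 and 55.3 FPKM in PND1 libraries. PND1 replicate 1 was the lowest and PND4 replicate 4 the highest, and without PND1 replicate 1 the log2 difference of 0.38 (SE 0.17, adjusted p = 0.805) was 0.24.

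Srsf2, which encodes the SR protein long used as a marker of nuclear speckles, had the highest level of the family, 86.8 ± 13.2 FPKM at PND4 and 79.0 ± 13.6 FPKM at PND1. It was followed by Srsf7, Srsf3, Srsf6 (48.1 ± 4.33 and 42.3 ± 6.73 FPKM) and Srsf9 (49.3 ± 10.95 and 39.1 ± 6.41 FPKM). Srsf1, which encodes the prototype of the family, had the highest coefficient of variation of the SR genes at PND4 apart from Srsf12, 41.0%. It stood at 32.6, 18.0, 37.4 and 15.8 FPKM in PND4 libraries and at 16.9, 21.6, 24.9 and 26.1 FPKM in PND1 libraries, so that the PND4 libraries enclosed the whole PND1 range. Its log2 difference of 0.14 turned to -0.064 without PND4 replicate 3. Srsf5 and Srsf11 stood at 24.7 ± 1.81 and 18.0 ± 1.119 FPKM at PND4 and at 21.1 ± 4.01 and 16.9 ± 3.93 FPKM at PND1. Srsf4 stood at 14.7 ± 1.84 FPKM at PND4 and 14.6 ± 2.76 FPKM at PND1, and Srsf10, which encodes an SR-like protein that represses splicing when dephosphorylated, at 14.0 ± 2.21 and 12.7 ± 2.62 FPKM.

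Srsf12 encodes an SR-like protein and was the lowest of all 52 genes. It stood at 0.882, 2.61, 2.53 and 4.90 FPKM in PND4 libraries and at 1.73, 1.86 and 0.392 FPKM in PND1 replicates 1 to 3, and was listed at 0 in PND1 replicate 4. It was the only member listed at 0 in any library, and its difference did not pass (adjusted p = 0.805). In the order of mean levels within the family, Srsf12 alone was separated from its neighbour in all libraries without overlap, and the other 9 neighbouring pairs overlapped.

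The SR genes shared a low library. PND1 replicate 1 was the lowest of the 8 libraries for 8 of the 11 SR genes, whereas it was the lowest for 28.0% of all tested genes. It was lowest for 4 of 9 SF3 genes, 2 of 12 snRNP genes and 3 of 20 hnRNP genes. It also had 1234 genes listed at 0, the most of any library, against 222 to 1097 in the other libraries. The summed SR level was 275 FPKM in that library and 342 to 388 FPKM in the other PND1 libraries, beside 380 to 429 FPKM in PND4 libraries. Without PND1 replicate 1 the family median was 0.072 and that of all genes 0.028. In PND4 replicate 1, which had 1097 genes at 0 and was the lowest library for 26.3% of all tested genes, 0 of 11 SR genes were lowest. That was not particular to SR genes, as 0 of 9 SF3 genes, 1 of 12 snRNP genes and 3 of 20 hnRNP genes were lowest there.

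**Figure D3:**
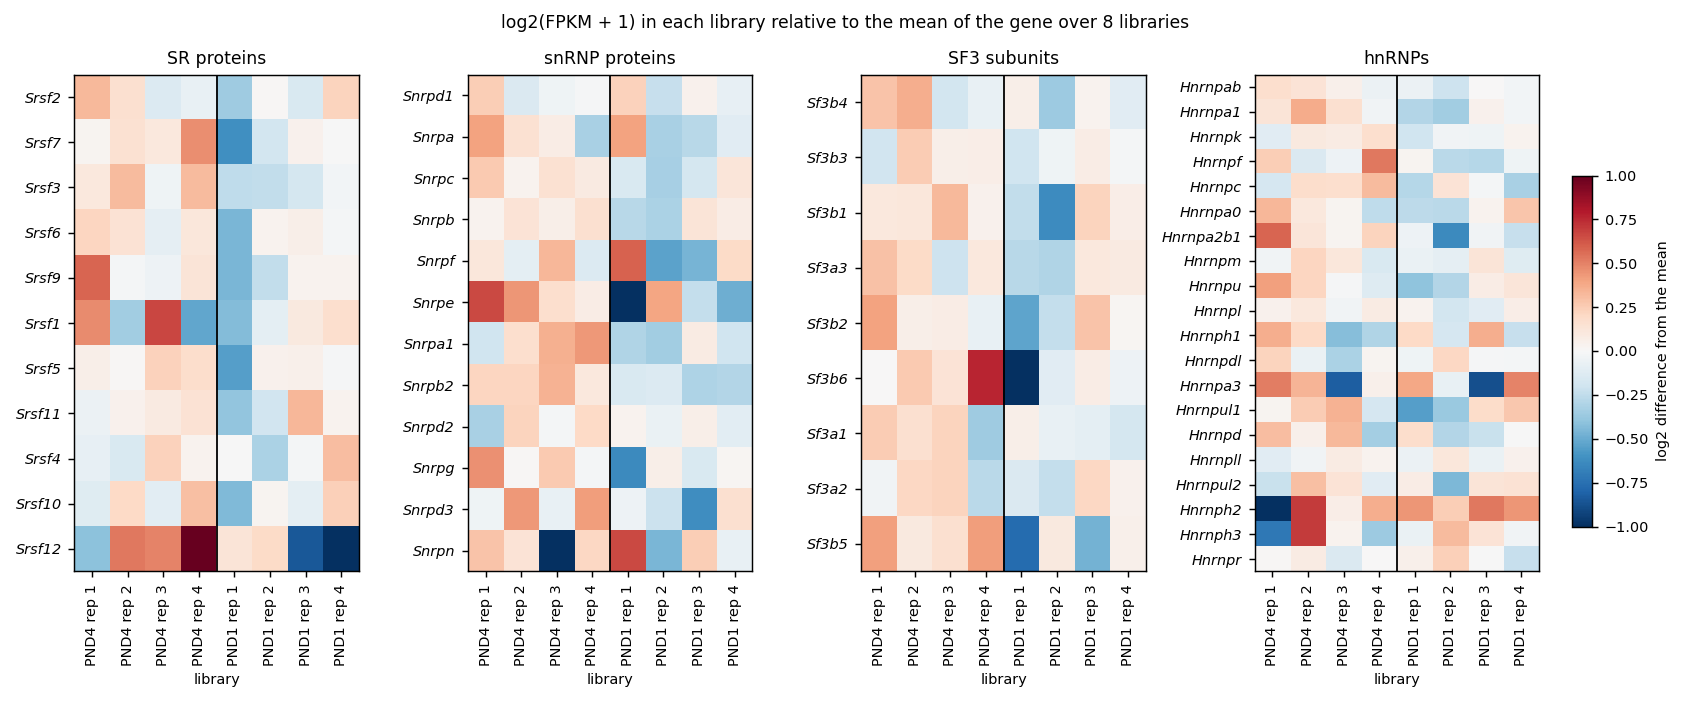
Each gene's log2(FPKM + 1) in each library minus its mean over the 8 libraries, with PND4 libraries left of the line and colours limited to between -1 and 1. PND1 replicate 1 was the lowest library for 8 of 11 SR genes, and PND4 replicate 1 the lowest for Hnrnph2, at 0.175 FPKM.

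Among the snRNP genes, Snrpb2 stood apart from the spread of its libraries more clearly than any other member. It encodes the B″ protein of the U2 snRNP. It stood at 32.5, 32.5, 35.7 and 29.9 FPKM in PND4 libraries and at 24.98, 25.1, 22.3 and 22.5 FPKM in PND1 libraries, without overlap. The log2 difference was 0.44 (SE 0.13, 95% interval 0.15 to 0.74, limma unadjusted p = 0.00729, adjusted p = 0.740), and it stayed between 0.40 and 0.48 with any 1 library left out. In the authors' deposited table its q was 0.440, the lowest of the members. Of the 52 members, 3 had higher PND4 values without overlap, or 5.77%, and 0 had lower ones, against 3.16% and 1.08% of all tested genes, or 4.24% in either direction. Among tested genes above the upper quartile by level the share higher without overlap was 5.70%, close to the members' 5.77%. The other two were Hnrnpa2b1 and Sf3b5, and none of the 3 shares exonic bases with another annotated gene.

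The partner of Snrpb2 in the U2 snRNP, Snrpa1, stood at 31.3, 40.7, 46.3 and 49.0 FPKM in PND4 libraries and at 29.1, 28.1, 38.2 and 31.3 FPKM in PND1 libraries. PND4 replicate 1 lay within the PND1 range, and the log2 difference was 0.38 (SE 0.17, adjusted p = 0.805). Snrpa1 shares 148 exonic bases with Gm45213 on the same strand. Of the U1 proteins, Snrpa stood at 89.6 ± 18.3 FPKM at PND4 and 80.9 ± 20.6 FPKM at PND1, and Snrpc at 90.9 ± 6.21 and 75.5 ± 10.3 FPKM. Snrnp70, for the third U1 protein, does not carry the Snrp prefix and is no member, and its FPKM averaged 56.2 ± 12.1 at PND4 and 42.4 ± 6.94 at PND1, with a log2 difference of 0.39 (adjusted p = 0.805).

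The 7 Sm core genes, whose products form the ring shared by snRNPs, differed widely in level although they enter the ring together. Snrpd1 was the highest, at 123 ± 14.8 FPKM at PND4 and 121 ± 16.5 FPKM at PND1. It was followed by Snrpb (86.0 ± 3.67 and 75.6 ± 12.2 FPKM), Snrpf (67.8 ± 10.6 and 65.9 ± 25.5 FPKM) and Snrpe (50.3 ± 9.62 and 32.9 ± 14.0 FPKM). Snrpd2 stood at 26.7 ± 4.63 and 25.7 ± 1.45 FPKM, Snrpg at 26.0 ± 4.30 and 20.2 ± 4.28 FPKM and Snrpd3 at 14.6 ± 3.01 and 11.1 ± 2.66 FPKM. Snrpd1 was above Snrpd3 by 6.35 to 16.1 times in every library. Small, intron-poor copies of such genes are common in mammalian genomes. Reads shared with them could be counted either way, so these levels carry that uncertainty. Snrpf also shares 567 of its 861 exonic bases with Ccdc38 on the opposite strand, and strand use in counting is not stated. All 7 Sm differences were above 0, against 60.3% of all tested genes. Those of Snrpd1 and Snrpd2, 0.021 and 0.040, turned below 0 with median-of-ratios scaling. Snrpe had the largest, with 62.4, 53.4, 44.2 and 41.2 FPKM in PND4 libraries and 18.9, 51.9, 33.1 and 27.6 FPKM in PND1 libraries. PND1 replicate 2 lay among the PND4 libraries and PND1 replicate 1 far below, and the log2 difference of 0.67 (SE 0.26, adjusted p = 0.805) was 0.44 without PND1 replicate 1.

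Snrpn encodes SmN, a near copy of the Sm protein SmB made by Snrpb, and is an imprinted gene expressed from the paternal allele and best known in brain. It was the lowest snRNP gene and the only one with a lower PND4 mean, at 7.43, 6.59, 2.46 and 6.98 FPKM in PND4 libraries and 9.90, 4.04, 7.18 and 5.55 FPKM in PND1 libraries. The ranges overlapped, and the log2 difference of -0.18 (adjusted p = 0.937) turned to 0.12 without PND4 replicate 3. Snrpb was 11.1 to 34.0 times higher than Snrpn in PND4 libraries and 6.66 to 15.9 times in PND1 libraries. Snrpn shares 216 exonic bases with Snurf and 589 with Gm38393 on the same strand, so reads of these genes may have been divided between them.

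All 9 SF3 genes had a difference above 0, against 60.3% of all tested genes, and none passed. Sf3b6 encodes the small subunit that contacts the branch-site adenosine, and stood at 31.0, 37.3, 34.1 and 53.1 FPKM in PND4 libraries and at 14.2, 28.5, 32.7 and 29.8 FPKM in PND1 libraries. The log2 difference was 0.58 (SE 0.26, adjusted p = 0.805), and it was 0.32 without PND1 replicate 1, the lowest library. Sf3b5, for another small subunit, stood at 14.5, 11.5, 12.1 and 14.6 FPKM in PND4 libraries and at 5.84, 11.5, 7.41 and 11.1 FPKM in PND1 libraries. The ages barely missed overlap, with 11.516 FPKM in the lowest PND4 library and 11.506 FPKM in the highest PND1 library, and the log2 difference was 0.54 (SE 0.24, adjusted p = 0.805). Without PND1 replicate 1 it was 0.38.

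Sf3b4, whose product binds RNA beside the branch site, had the highest level of the SF3 genes, at 96.8 ± 17.9 FPKM at PND4 and 84.2 ± 10.9 FPKM at PND1. It was above Sf3b3, at 56.4 ± 7.20 and 52.6 ± 4.21 FPKM, in all 8 libraries without overlap, and Sf3b3 was likewise above Sf3b1. Sf3b1, the large scaffold subunit that holds the branch helix, stood at 39.6 ± 3.58 and 32.9 ± 8.40 FPKM, with 22.6 FPKM in PND1 replicate 2. Its log2 difference of 0.29 (adjusted p = 0.812) was 0.13 without that library. Sf3a3, Sf3b2, Sf3a1 and Sf3a2 stood at 37.7 ± 5.51, 37.9 ± 5.73, 30.0 ± 5.58 and 27.7 ± 4.52 FPKM at PND4, and at 33.1 ± 5.23, 32.7 ± 8.04, 26.7 ± 1.88 and 26.4 ± 3.79 FPKM at PND1, in the same gene order. The difference of Sf3a2, 0.063, turned to -0.012 with median-of-ratios scaling.

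**Figure D4:**
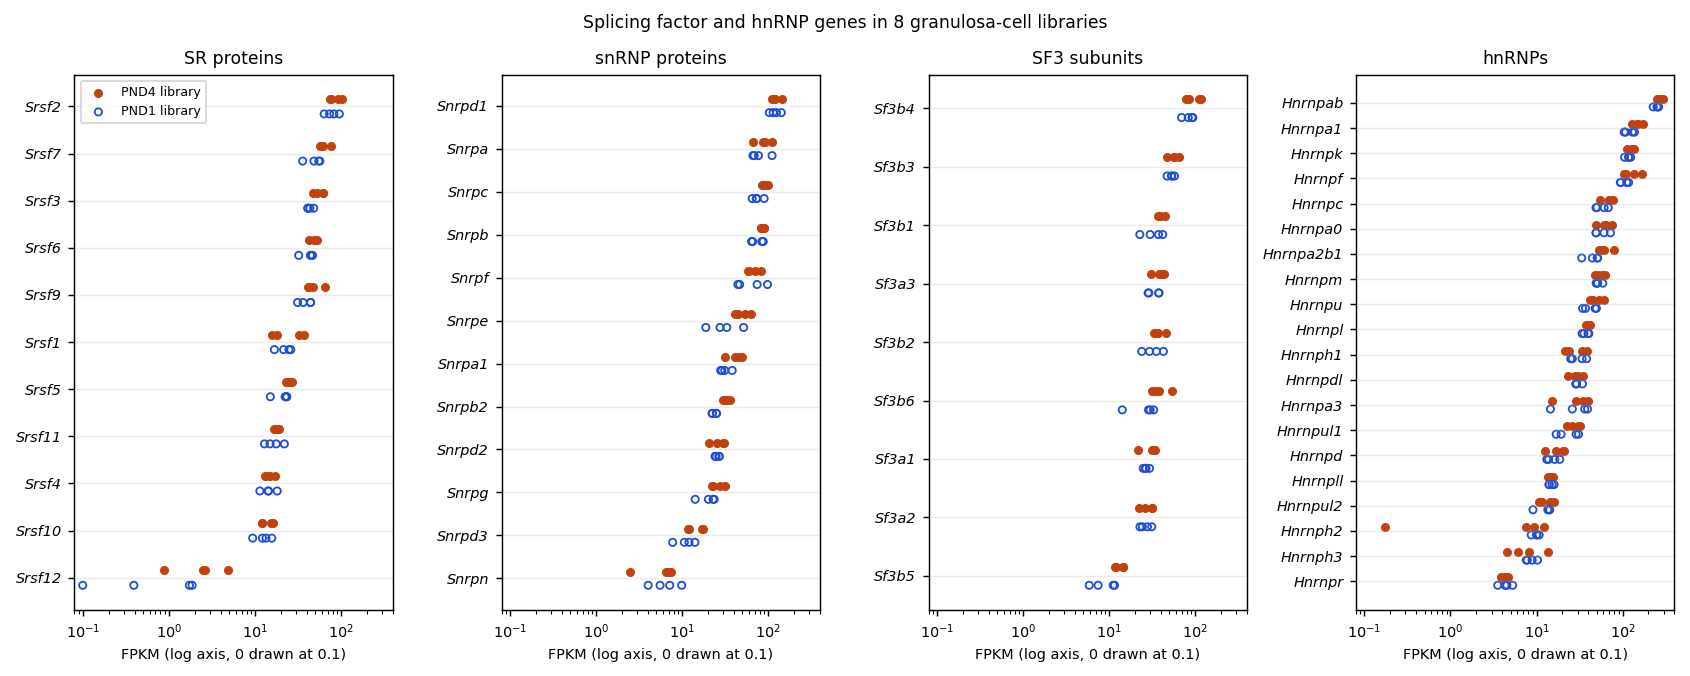
FPKM of each gene in each library on a log axis, with filled points for PND4 and open points for PND1. Levels span from Srsf12, listed at 0 in 1 PND1 library and drawn at 0.1, to Hnrnpab, at 227 to 294 FPKM over the 8 libraries.

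The hnRNP genes held both the highest level of all members and most of the lower PND4 values. Hnrnpab, which encodes an RNA-binding protein of the A/B group, stood at 294, 287, 271 and 252 FPKM in PND4 libraries and at 252, 227, 262 and 257 FPKM in PND1 libraries. It lay above every other member in all 8 libraries, and the ages overlapped (log2 difference 0.14, adjusted p = 0.828). It shares 809 exonic bases with Phykpl on the opposite strand and the sources used here do not say if strand was used in counting. Hnrnpa1, Hnrnpk and Hnrnpf followed. Hnrnpk, which binds C-rich RNA, stood at 127 ± 10.2 FPKM at PND4 and 116 ± 7.83 FPKM at PND1, and Hnrnpf, which binds G-tracts, at 129 ± 28.2 and 105 ± 11.7 FPKM.

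Hnrnpa2b1 and Hnrnpa1 encode related hnRNPs that often repress exons, and had the smallest p-values of the family. Hnrnpa2b1 stood at 79.0, 57.1, 53.5 and 61.5 FPKM in PND4 libraries and at 50.7, 33.5, 51.3 and 44.6 FPKM in PND1 libraries, without overlap (log2 difference 0.47, SE 0.17, limma unadjusted p = 0.0189, adjusted p = 0.775). Hnrnpa1 stood at 145, 172, 149 and 130.01 FPKM in PND4 libraries and at 108, 104, 138 and 130.4 FPKM in PND1 libraries. PND4 replicate 4 lay within the PND1 range, and the log2 difference was 0.31 (SE 0.13, adjusted p = 0.805). The ratio of Hnrnpa2b1 to Hnrnpa1 was 0.427 ± 0.0991 at PND4 and 0.376 ± 0.0647 at PND1 (SD, n = 4 each). The third member of the group, Hnrnpa3, ranged from 15.1 to 39.8 FPKM at PND4 and from 14.5 to 39.2 FPKM at PND1, with a low library at each age, both numbered 3. Its log2 difference was 0.039 (adjusted p = 0.987).

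Hnrnpc, for a protein that binds uridine tracts, stood at 67.9 ± 9.41 FPKM at PND4 and 57.2 ± 9.04 FPKM at PND1. Hnrnpa0, Hnrnpm and Hnrnpu, the last a large nuclear matrix protein, stood at 62.4 ± 10.4, 55.3 ± 6.25 and 50.2 ± 8.54 FPKM at PND4 and at 57.9 ± 11.1, 52.4 ± 4.37 and 42.3 ± 7.70 FPKM at PND1, in the same gene order. Hnrnpl and its paralog Hnrnpll, which bind CA-rich RNA, were among the steadiest genes. Hnrnpl stood at 39.99 ± 1.78 and 37.4 ± 3.21 FPKM and Hnrnpll at 14.6 ± 0.896 and 14.8 ± 0.966 FPKM. Hnrnpul1, Hnrnpd and Hnrnpul2 stood at 27.7 ± 4.53, 17.7 ± 3.75 and 13.2 ± 2.33 FPKM at PND4 and at 23.9 ± 6.86, 15.5 ± 2.50 and 12.7 ± 2.44 FPKM at PND1, in the same gene order.

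The 6 hnRNP genes with a difference below 0 were Hnrnph2, Hnrnph3, Hnrnph1, Hnrnpdl, Hnrnpr and Hnrnpll, and none had an unadjusted p under 0.05. Hnrnph1, Hnrnph2 and Hnrnph3 encode proteins that, like Hnrnpf, bind G-tracts. Hnrnph2 stood at 0.175, 12.2, 7.54 and 9.47 FPKM in PND4 libraries and at 10.1, 8.68, 10.7 and 10.1 FPKM in PND1 libraries. The low mean at PND4 rested on replicate 1, without which the log2 difference of -0.83 was -0.039. Hnrnph3 was also lowest in PND4 replicate 1, at 4.51 FPKM, and its difference of -0.17 turned to 0.037 without that library. Hnrnph1 did not share that low value, with 38.1 FPKM in the same library, and it stood at 29.3 ± 7.97 FPKM at PND4 and 30.8 ± 6.34 FPKM at PND1. Hnrnpdl stood at 29.0 ± 4.60 and 30.3 ± 2.65 FPKM and Hnrnpr, the lowest of the family, at 4.29 ± 0.336 and 4.42 ± 0.715 FPKM.

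As a set the members were well expressed. Their mean FPKM over 8 libraries had a median of 35.4, against 8.35 over all listed genes, and 49 of 52 lay above that median. The exceptions were Srsf12, Snrpn and Hnrnpr. The median coefficient of variation between libraries of an age was 15.8% at PND4 and 16.3% at PND1 for the members, beside 14.9% and 15.3% for tested genes above the upper quartile by level. Of the 52, 14 share exonic bases with another listed gene, most of them on the opposite strand. Srsf2 does so with Mettl23 and Mfsd11, and Hnrnpu with Cox20. Hnrnpm shares 1169 exonic bases with March2 on the same strand, so reads of these genes may have been divided between them.

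Other splicing genes were followed through a list of 91 spliceosome components and regulators, of which all 91 were listed and 90 tested. None passed (limma, adjusted p under 0.05, smallest adjusted p = 0.743). At an unadjusted p under 0.05, 1 was higher at PND4 and 0 lower, against 4.06% and 1.84% of all tested genes. A log2 difference above 0 was had by 67 of 90, or 74.4%, against 60.3% of all tested genes. The median was 0.15, beside 0.16 for the 52 members and 0.078 for all tested genes. The highest were Ptbp1, for the polypyrimidine-tract repressor of exons, at 154 ± 13.2 FPKM at PND4 and 155 ± 11.7 FPKM at PND1, and Nono, for a paraspeckle protein, at 141 ± 11.2 and 136 ± 10.6 FPKM. Eftud2, the GTPase of the U5 snRNP, was the 1 gene with an unadjusted p under 0.05, at 47.4, 41.9, 40.7 and 44.3 FPKM in PND4 libraries and 27.7, 34.4, 37.0 and 33.0 FPKM in PND1 libraries, without overlap (log2 difference 0.39, adjusted p = 0.743). In the other direction Lsm6, for a subunit of the ring on U6 RNA and named here after its values were seen, also did not overlap, at 4.21, 4.74, 5.51 and 5.52 FPKM in PND4 libraries and 6.94, 6.02, 8.45 and 5.70 FPKM in PND1 libraries. Its log2 difference was -0.37 (adjusted p = 0.829). Of the 90 tested, 1 was higher and 1 lower without overlap, against 3.16% and 1.08% of all tested genes. The smallest p with lower PND4 values was that of Slu7, a factor of the second splicing step, with a mean of 3.89 ± 2.28 FPKM at PND4 and 6.96 ± 1.72 FPKM at PND1, a log2 difference of -0.81 (adjusted p = 0.805), and without PND4 replicate 1 its difference was -0.47.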

How the data were processed

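The submitters' processing notes name Trim Galore, HISAT2 and GRCm38, without versions. The authors deposited 1 FPKM value per gene and library, per the file headers. What program, annotation, strand setting and filter made them is not stated. A second table deposited by the authors holds a linear fold (ratio, PND1 over PND4 as the values show), its log2, and p-value and q-value columns, from a test it does not name.

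Values were taken as log2(FPKM + 1), which understates changes of low genes. The test covered the 10756 of 11783 genes that reached 1 FPKM in 4 or more libraries and left out 1027. The ages were tested against each other in limma 3.58.1 (R 4.3.3), letting the prior variance follow the mean, without a block, with Benjamini-Hochberg adjustment over all tested genes and a threshold of 0.05. The fit was tested on simulated data drawn gene by gene. These data held no shift shared by the genes of a library, so that check does not cover effects of scaling. In 2467 genes with 1 annotated transcript, at most 35.8% of low values came within 0.1 of a whole multiple of any read value tried. Chance gives 20% for 1 read value, and the 35.8% is the best over all values tried and all libraries. Whole reads were therefore not recovered.

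The members and lists were chosen with earlier results of these data known. The rule for genes to name took, per family, the 4 highest, the 2 smallest p-values in each direction and the lowest, then members without overlap between ages and a fixed few, which gave 29 members. The other 23 are named to account for every member. Transcripts, positions and sequences came from GENCODE M21, which holds 11770 of the 11783 identifiers. Figures were drawn with matplotlib 3.10.9. Alternatives covered scaling, pseudocount, filter, robust variance, a replicate block and leaving out each library.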

Additional observations from a re-analysis of the deposited data

Results flagged for a closer look

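In groups of 4 libraries, 4 values stood far from the other libraries of their age: the gap to the nearest library took more than 0.829 of the range of the age. Srsf5 was at 15.1 FPKM in PND1 replicate 1, Hnrnpdl at 34.2 FPKM in PND1 replicate 2, Hnrnpul2 at 9.09 FPKM in PND1 replicate 2 and Snrpn at 2.46 FPKM in PND4 replicate 3. They came from 114 groups scanned (each gene and each sum at each age), and chance gives about 1 in 20.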

How the results depend on the processing

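The number of genes past the test was 1, and that of members and of other splicing genes past it 0, under every alternative run and with any 1 library left out. The lowest adjusted p of any gene named was 0.596 over all alternatives. With the replicate number as a block, 0 members passed and 8 had an unadjusted p under 0.05 with higher PND4 values, or 15.4% against 4.27% of all tested genes. Libraries with the same number did not deviate together (correlations across genes of -0.0088 to 0.12, and 1 of 4 PND4 libraries closest to its own number). The count of such members, 9 as reported, was 2 with median-of-ratios or upper-quartile scaling, 4 with scaling to the total without mitochondrially encoded genes (7.69% against 3.11% of all genes), and 3 to 8 with 1 library left out. Left-out libraries gave 5.77% to 15.4% of members and 3.07% to 5.19% of all genes. The lowest counts, 3 without PND4 replicate 2 or PND1 replicate 1, were 5.77% of members against 3.19% and 3.51% of all genes.

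The median difference of the members was 0.087 and 0.078 with median-of-ratios and upper-quartile scaling, and that of snRNP genes 0.16 and 0.15. With 1 library left out the median of SR genes ran from 0.072 (without PND1 replicate 1) to 0.27 and that of snRNP genes from 0.17 to 0.31, that of SF3 genes from 0.13 to 0.28, and that of hnRNPs from 0.053 to 0.16. Under median-of-ratios and upper-quartile scaling, differences turned below 0 for Snrpd1 (-0.056 and -0.065), Snrpd2 (-0.036 and -0.045), Srsf4 (-0.056 and -0.064), Sf3a2 (-0.012 and -0.021), Hnrnpm (-0.0038 and -0.012), Hnrnpa3 (-0.036 and -0.045), Hnrnpul2 (-0.023 and -0.031) and Nono (-0.025 and -0.034). With 1 library left out, differences took both signs for Snrpd1 (-0.057 to 0.10), Snrpn (-0.37 to 0.12), Hnrnph3 (-0.43 to 0.037), Hnrnpr (-0.11 to 0.048), Srsf1 (-0.064 to 0.33), Ptbp1 (-0.054 to 0.046), Sf3a2 (-0.0046 to 0.16), Srsf11 (-0.0012 to 0.24), Srsf4 (-0.086 to 0.12), Hnrnph1 (-0.22 to 0.045), Hnrnpdl (-0.15 to 0.028), Hnrnpa3 (-0.25 to 0.32), Hnrnpll (-0.043 to 0.022), Hnrnpul2 (-0.091 to 0.13), Snrpf (-0.055 to 0.32) and Snrpd2 (-0.027 to 0.15). The cause was not tested. Read depth is unknown, and 4 libraries per age limit what could be called.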

Other observations

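Ratios of related members were mostly similar at both ages. Hnrnpl to Hnrnpll was 2.75 ± 0.244 at PND4 and 2.54 ± 0.304 at PND1, Srsf7 to Srsf3 was 1.14 ± 0.127 and 1.12 ± 0.182, and Snrpa to its U2 paralog Snrpb2 was 2.74 ± 0.523 and 3.40 ± 0.766 (SD, n = 4 each). Hnrnph1 to Hnrnph2 was 2.49 to 2.86 in PND4 replicates 2 to 4 and 2.47 to 3.56 in PND1 libraries, but 218 in PND4 replicate 1.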
